A study of Mus musculus with 27 samples.

Results

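The messenger RNA of 9 genes of bone morphogenetic protein (BMP) signalling was followed through mouse hearts with deletions in Hand2os1. That gene makes a long non-coding RNA and lies next to Hand2, which encodes a heart transcription factor. The 9 genes were taken by name: the ligand genes Bmp2, Bmp4, Bmp5, Bmp7 and Bmp10, the inhibitor-of-differentiation genes Id1, Id2 and Id3, and Smad6. All 9 were found among the 24025 genes of the bulk table and among the 19020 genes of the single-cell table.

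BMP ligands are secreted dimers of the transforming growth factor beta family. They bind paired type I and type II receptor kinases, which phosphorylate Smad1, Smad5 and Smad9; these enter the nucleus with Smad4 and switch on target genes. Id1, Id2 and Id3 are classic targets that encode helix-loop-helix proteins without a DNA-binding region, and Smad6 is a target that encodes an inhibitory Smad and so feeds back on the pathway. In the embryonic heart, Bmp2 and Bmp4 are known for cushion and outflow tract formation, Bmp10 for growth of the trabeculae, and Bmp5 and Bmp7 for overlapping roles in the myocardium.

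Per the labels, all animals were C57BL/6 mice, the F allele (Hand2asF) is a full-length deletion and the D allele (Hand2asD) a deletion of the 3' distal part. Bulk libraries came from whole E11.5 hearts (E, embryonic day; 3 F/+ and 3 F/F libraries), from E16.5 ventricles (3 F/+ and 3 F/F libraries) and from cardiomyocytes of 8-week-old mice (5 +/+, 2 D/+ and 6 D/D libraries). The F/+ controls therefore carry 1 deleted allele themselves. The 2 single-cell libraries held dissociated, live-sorted cells of E11.5 +/+ and F/F hearts, each pooled from 6 hearts, so a genotype there is 1 library. Nothing in the labels says whether the bulk replicates of a group were separate animals, and p-values measure the spread between these libraries only.

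The promoters of the targets are shown first because the targets are read here as an output of the pathway. They are the 250 bases before the annotated start of Id2, Id3 and Smad6, written 5' to 3' on the strand of the gene, from RefSeq (GRCm38.p6). Capitals mark 2 palindromes known as elements bound by Smads: GTCTAGAC, and the GC-rich GGCGCC. Both are their own reverse complement, so 1 search covers both strands, and neither contains the other.
Id3, chr4:136143572-136143821 (+ strand), no match to either palindrome: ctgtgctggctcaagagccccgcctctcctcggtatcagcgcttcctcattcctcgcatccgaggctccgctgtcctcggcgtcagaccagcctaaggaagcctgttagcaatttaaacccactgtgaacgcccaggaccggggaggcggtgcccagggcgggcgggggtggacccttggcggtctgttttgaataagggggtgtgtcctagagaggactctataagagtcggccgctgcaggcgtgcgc
Id2, chr12:25096093-25096342 (- strand), GGCGCC from position -231: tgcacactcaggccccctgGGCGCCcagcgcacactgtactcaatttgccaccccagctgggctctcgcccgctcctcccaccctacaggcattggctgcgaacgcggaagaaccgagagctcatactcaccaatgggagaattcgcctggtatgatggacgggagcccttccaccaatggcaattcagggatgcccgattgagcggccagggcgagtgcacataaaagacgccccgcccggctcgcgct
Smad6, chr9:64022056-64022309 (- strand), GTCTAGAC from position -4 and, for that reason, shown 4 bases past the start: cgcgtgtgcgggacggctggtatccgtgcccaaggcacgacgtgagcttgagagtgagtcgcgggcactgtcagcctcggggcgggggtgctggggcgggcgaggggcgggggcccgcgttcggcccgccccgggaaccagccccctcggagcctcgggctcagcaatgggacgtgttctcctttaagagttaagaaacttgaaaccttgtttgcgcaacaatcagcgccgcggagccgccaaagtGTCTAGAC
RefSeq promoter entries were matched for 6 of the 9 genes: Bmp4, Bmp5, Bmp10, Id2, Id3 and Smad6. In windows of 300 bases (250 before to 50 after the start), GTCTAGAC occurred in 70 of 32851 promoters (0.213%), and GGCGCC in 3898 (11.9%). The windows of Id2, Id3 and Smad6 had a GC content of 63.3%, 60% and 66.3%, against a median of 52.7% over all promoters. A match describes the letters only, not binding, and no match says nothing about the factor.

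Bulk values were FPKM (fragments or reads per kilobase of transcript, scaled to library size), whose read depth is unknown. The 12 embryonic and 13 8-week libraries summed to 334194 to 586795 FPKM. Haemoglobin genes took 10.4% to 29.7% of each E11.5 library and at most 2.42% of each later one. Gapdh was listed at 0.12 to 5.09 FPKM in the embryonic libraries and at 980 to 2529 in the 8-week ones, so levels of the 2 sets may not be on 1 scale. All 6 E11.5 libraries list the targeted gene at 0, so there it checks nothing; at E16.5 it was 0.37 to 1.4 FPKM in F/+ and 0 in F/F. In the 8-week libraries it was 6.9 to 13.48 FPKM in 4 of the 5 +/+ libraries, 5.25 and 6.17 in D/+ and 0 to 2.67 in D/D. The library labelled +/+ replicate 5 had 0, against its label, and the members' comparisons that use it are given with and without it. All 11 cardiomyocyte markers were detected in each bulk group. The 8-week cardiomyocyte libraries also held markers of other cells: 11 endothelial markers summed to 120 to 560 FPKM, beside 32020 to 43510 for the cardiomyocyte markers.

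The single-cell libraries held 2563 barcodes and 38302758 UMIs (unique molecular identifiers, 1 per captured molecule) for +/+, and 3469 and 51432290 for F/F. Median depth was 13369 and 13403 UMIs, and 18 barcode sequences occurred in both libraries. The 5871 cells kept fell into 18 clusters, named from marker lists. 4 clusters stayed without a cell type name. Of these, 2 had under 20 cells in either library (13 +/+ and 0 F/F cells in a cluster led by Afp, and 3 and 7 in the other) and are not described further. Of the other two, the first, led by Rspo3 and Sema3c, had cardiomyocyte markers among its genes and Bmp4 among its top 10. The second, in the text the Rgs5 and Isl1 cluster, was led by those genes. Members and pathway genes were left out of the clustering, but genes that vary with them were not, so levels by class are a description without a test. Levels are in CPM (UMIs of a gene scaled to the UMIs of the class), with exact Poisson intervals that cover counting error only.

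In E11.5 hearts the ligands fell into different cells. Bmp2 and Bmp4 were highest in the atrial and unnamed clusters, Bmp7 in all cardiomyocytes, and Bmp10 mostly in the trabecular cells. The Id genes and Smad6 were highest in the mesenchyme and low in the trabecular cells.

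Bmp10, the ligand of the trabecular myocardium, stood at 36.9 CPM (31.6 to 43.0) in the +/+ trabecular cardiomyocyte-like cells and at 31.8 (27.2 to 37.0) in the F/F ones. These cells gave 84.3% of all Bmp10 UMIs of the +/+ library while making up 10.6% of its cells. After every cell was thinned to 5000 UMIs, 13.8% (exact Clopper-Pearson interval 9.79 to 18.6) of 254 +/+ and 14.6% (10.99 to 18.9) of 328 F/F trabecular cells had a Bmp10 UMI; 10 and 13 shallower cells were left out, and without thinning the shares were 29.2% and 29.6%. In the erythroid cells, which should lack the gene, the thinned shares were 0.228% and 0.17%. Most trabecular cells therefore gave no Bmp10 UMI at this depth, and the shares were well above those of the erythroid cells. In the compact ventricular cardiomyocyte-like cells Bmp10 was at 9.71 CPM in +/+ (25 UMIs) and 2.46 in F/F (13 UMIs).

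Bmp7 was spread over the myocardium. In +/+ it was at 119 CPM (106 to 133) in the ventricular, 117 (101 to 135) in the Rspo3 and Sema3c, 113 (103 to 123) in the trabecular and 86.2 (60.03 to 120) in the atrial and sinus cells. These 4 levels had overlapping intervals from neighbour to neighbour. The next class, the Rgs5 and Isl1 cluster, was at 15.9 CPM (8.69 to 26.7), and the mesenchymal cells were at 0.472. The same 4 classes led in F/F, again with overlapping intervals from neighbour to neighbour. Ventricular cells were at 99.3 CPM, and the Rspo3 and Sema3c cluster was now the lowest of the 4, at 82.3. Mesenchymal cells were at 1.48 CPM. Bmp5, a closely related ligand, was also led by cardiomyocytes: it was at 17.7 and 20.1 CPM in the trabecular and 14.8 and 17.1 in the ventricular cells (+/+, then F/F). In the atrial and sinus cells Bmp5 rested on 17 and 18 UMIs, at 41.9 and 19.7 CPM, and no Bmp5 UMI was found in the endothelial cells of either library.

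Bmp4 was led by the Rspo3 and Sema3c cluster, at 608 CPM (571 to 647) in +/+ and 497 (468 to 527) in F/F, followed by the Rgs5 and Isl1 cluster at 417 (375 to 461) and 425 (383 to 471). The intervals of these 2 clusters overlapped in F/F and not in +/+. The Rspo3 and Sema3c cluster made up 4.44% of +/+ cells and gave 44.9% of the library's Bmp4 UMIs; Bmp4 is itself among the leading genes of that cluster. After thinning, 87.0% (79.2 to 92.7) and 89.3% (83.3 to 93.8) of its cells had a Bmp4 UMI, against 0.913% and 0.681% of the erythroid cells. Bmp2, the closest relative of Bmp4, was led by the atrial and sinus cells instead, at 207 CPM (165 to 256) in +/+ and 152 (128 to 179) in F/F. After thinning, 29.4% (15.1 to 47.5) of 34 +/+ and 29.0% (18.7 to 41.2) of 69 F/F atrial and sinus cells had a Bmp2 UMI. The level thus rested on a minority of the cells of a small class at this depth. The Rspo3 and Sema3c cluster followed at 69.5 and 65.6 CPM and the mesenchymal cells at 42.2 and 40.9. Both genes were low in the trabecular cells, at 1.77 and 1.14 CPM for Bmp2 and at 4.64 and 3.6 CPM for Bmp4.

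**Figure D1:**
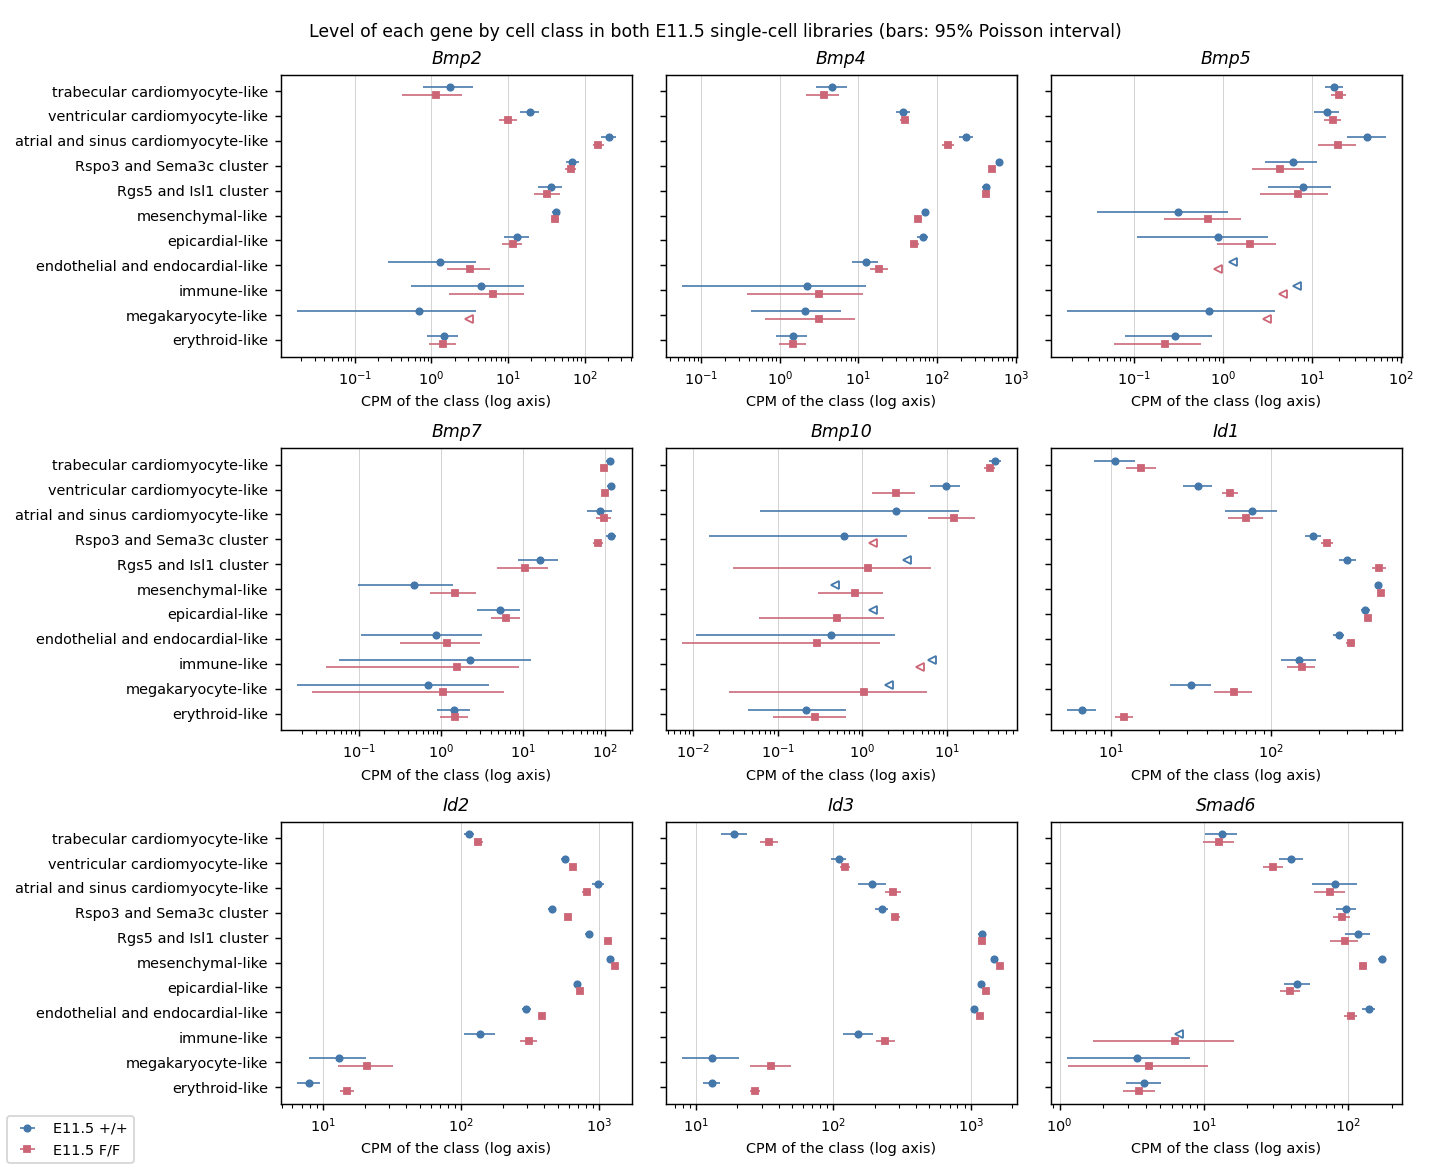
Level of each gene (CPM of the class, log axis) in 11 cell classes of the E11.5 +/+ (blue circles) and F/F (red squares) single-cell libraries, 1 library each; bars are exact 95% Poisson intervals, and open triangles mark classes with 0 UMIs, drawn at the level 3 counts would give. Bmp10 peaks in the trabecular cells (36.9 and 31.8 CPM), Bmp4 in the Rspo3 and Sema3c cluster (608 and 497 CPM), and Id1, Id2, Id3 and Smad6 in the mesenchymal cells.

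Among the targets, Id3 was at 1477 CPM (1447 to 1507) in the +/+ and 1621 (1592 to 1651) in the F/F mesenchymal cells, and between 1059 and 1290 CPM in the Rgs5 and Isl1, epicardial and endothelial cells of both libraries. It then dropped to 109 and 122 CPM in the ventricular and to 19.0 and 34.3 CPM in the trabecular cells. Thinned shares of cells with an Id3 UMI were 98.6% and 99.4% in the mesenchyme, 95.4% and 97.3% in the endothelium, 34.1% and 39.9% in the ventricular and 12.2% and 14.0% in the trabecular cells. The erythroid shares were 6.62% and 13.0%, at median depths of 10910 and 11650 UMIs against 16940 and 15470 in the trabecular cells. The trabecular share in F/F therefore lay close to the erythroid one, and by these shares Id3 could not be told from background there. By level, Id3 was at 34.3 CPM in the F/F trabecular and 26.9 in the F/F erythroid cells.

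Id1 followed Id3: 465 and 491 CPM in the mesenchymal, 390 and 402 in the epicardial, 265 and 315 in the endothelial, 35.0 and 55.7 in the ventricular and 10.6 and 15.5 in the trabecular cells. Thinned shares of trabecular cells with an Id1 UMI were 4.72% and 7.62%, against 4.11% and 6.64% of erythroid cells, so Id1 there could not be told from background in either library. Id2 differed from both in the myocardium. It was second only to the mesenchyme in the +/+ atrial and sinus cells, at 983 CPM (889 to 1084). That interval overlapped the one of the +/+ Rgs5 and Isl1 cluster, at 842 (782.5 to 904.9). In F/F this cluster was second, at 1160 CPM against 809 in the atrial and sinus cells. In the ventricular cells Id2 was at 559 (531 to 589) and 649 (627 to 671) CPM, above its endothelial level of 295 and 382. In the trabecular cells Id2 was lower than in the other cardiomyocyte classes, at 114 and 133 CPM. Smad6, the inhibitory Smad, was at 171 CPM (161 to 182) in the +/+ and 126 (118 to 135) in the F/F mesenchymal cells, then at 138 and 104 in the endothelial and 13.3 and 12.7 in the trabecular cells. The +/+ mesenchymal cells, 18.3% of that library's cells, gave 54.4% of its Id1, 54.2% of its Id2, 56.2% of its Id3 and 53.6% of its Smad6 UMIs.

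The named classes were not uniform inside. The endothelial class consisted of a cluster led by Klf2 and Aqp1 and a cluster led by Emcn and Plvap. Smad6 was at 243 CPM (214 to 275) in the first and 51.8 (40.1 to 65.9) in the second in +/+, and at 159 and 43.7 in F/F. Id1 differed the same way, at 392 against 160 CPM in +/+ and 395 against 228 in F/F, as did Id3, at 1402 against 776 and 1432 against 878. Id2 had the opposite order, at 226 against 352 and 274 against 499 CPM. The intervals of the 2 clusters did not overlap for any of these genes in either library. In the mesenchyme, the cluster led by Msx1 and Twist1 had more Id1 than the cluster led by Inhba, Postn and Meox1 (533 against 391 CPM in +/+, 523 against 449 in F/F) and less Smad6 (155 against 189, and 114 against 142). Bmp2 and Bmp4 were lower in the first, at 33.9 against 51.2 and 56.2 against 85.0 CPM in +/+.

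Across 20 points (10 clusters in both libraries, with the erythroid, megakaryocyte, immune and smallest clusters left out), log2 levels of Id1 and Id3 had a Pearson r of 0.966 and a Spearman rho of 0.937. Bmp5 and Bmp7 had r = 0.926 (rho 0.853), Bmp2 and Bmp4 had r = 0.847 (rho 0.874), and Id1 and Smad6 had r = 0.791 (rho 0.683). Between Bmp7 and Id3 r was -0.845 and rho -0.798. Between Bmp10 and Id1 r was -0.886 but rho only -0.513, and most clusters hold few or no Bmp10 UMIs. The points share libraries and each cluster appears once per library, so these values are a description. Over all 31 points (clusters with at least 20 cells) and 10384 genes, the genes most like each member were Msx2 for Bmp2 (r = 0.909), Gpr85 for Bmp4 (0.935), E530001K10Rik for Bmp5 (0.957), Ttn for Bmp7 (0.976) and Ntn1, followed by Nppa, for Bmp10 (0.927 for Ntn1). They were Capns1, then Id3, for Id1 (0.972 for Capns1), Gm1673 for Id2 (0.965), Id1 for Id3 (0.963) and Ncam1, then Smad7, for Smad6 (0.97 for Ncam1).

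Of the 39 other BMP pathway genes listed, 38 were in the single-cell table and 22 had at least 100 UMIs in each library; 11 of the 22 had their highest class in common between the libraries. Eng, a co-receptor of endothelium, was highest in the endothelial cells at 483 and 421 CPM (+/+, F/F), and so was the type I receptor gene Acvr1 at 43.9 and 32.7. Fstl1, an extracellular modulator, was highest in the mesenchymal cells at 514 and 423 CPM. Bambi, a pseudoreceptor that dampens the signal, was highest in the atrial and sinus cells at 446 and 374 CPM, as was the target gene Msx2 at 116 and 51.4. Smad7, the other inhibitory Smad, was highest in the Rgs5 and Isl1 cluster at 159 and 133 CPM. In that list, the class where Bmp2 was highest was thus also the class where Bambi and Msx2 were highest.

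The bulk libraries gave the levels over time. At E11.5 the F/+ hearts had Id3 at 171 ± 19.0 FPKM (SD, n = 3) and Id2 at 150 ± 25.3, whose ranges overlapped. Id1 followed at 66.9 ± 0.827, then Smad6 (40.6 ± 4.41), Bmp7 (40.3 ± 10.96), Bmp4 (33.8 ± 15.4) and Bmp10 (21.7 ± 4.86), each overlapping the next. Bmp2 (6.01 ± 2.17) and Bmp5 (2.17 ± 0.48) were lowest. At E16.5 the F/+ ventricles still had Id3 on top at 129 ± 2.37 FPKM, with Bmp7 at 35.4 ± 1.18 now beside Id1 (36.7 ± 4.94) and Id2 (32.3 ± 3.57). In the 8-week +/+ cardiomyocytes Id3 (64.0 ± 30.3 FPKM, n = 5) and Id1 (39.7 ± 15.99) overlapped, Smad6 was at 6.78 ± 2.38, and all 5 ligands were below 3 FPKM on average. In whole tissue, fewer cells of a type and less RNA per cell cannot be told apart.

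**Figure D2:**
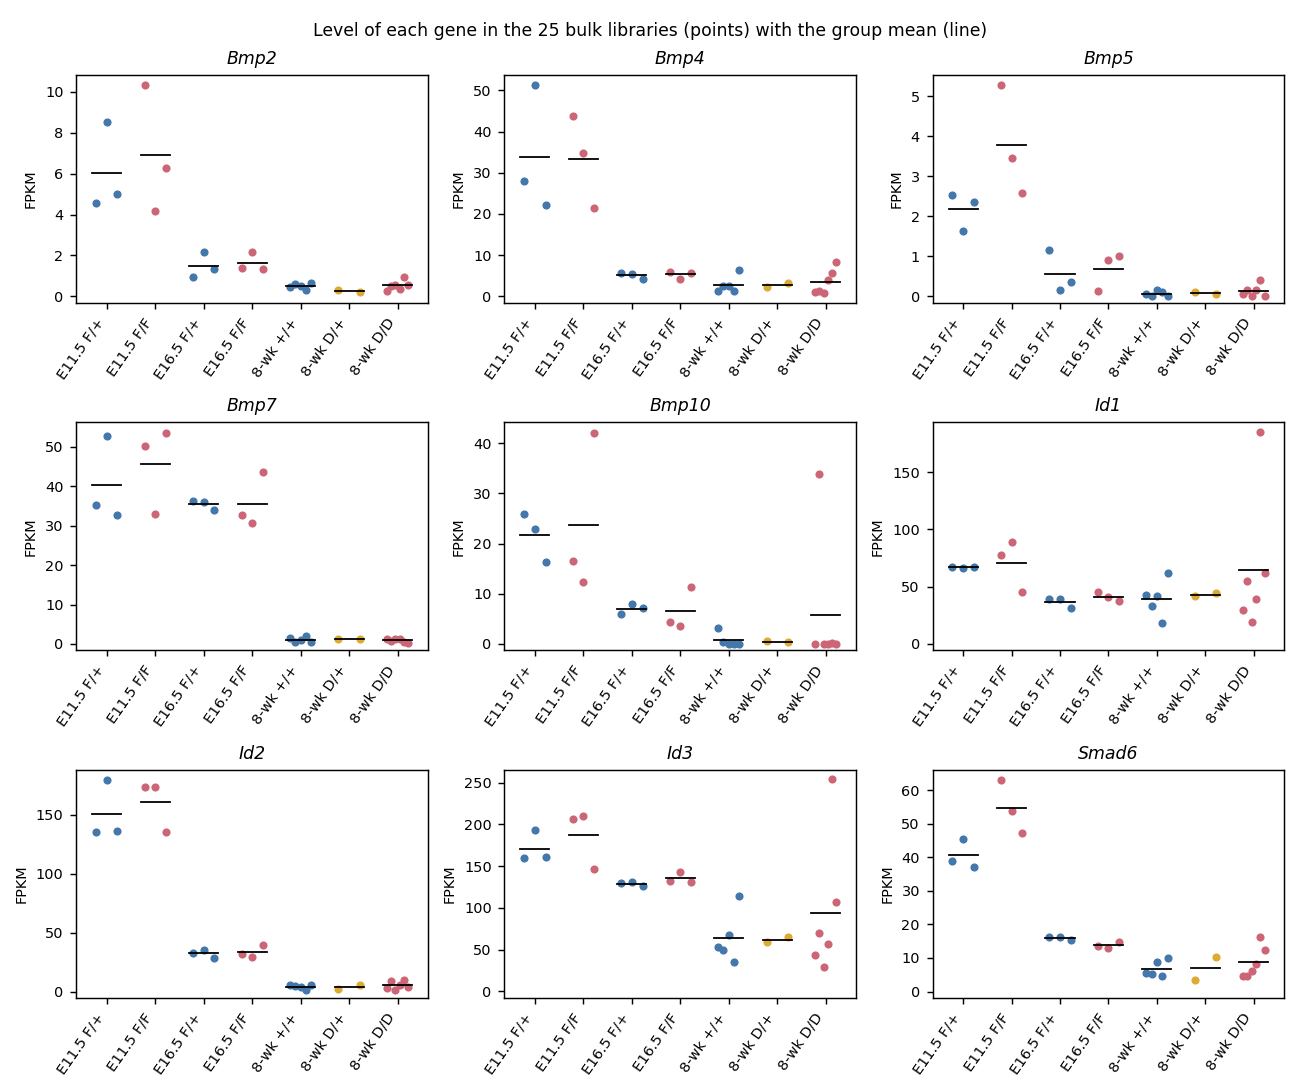
FPKM of each gene (linear axis) in the 25 bulk libraries, 1 point per library with a line at the group mean, by stage and genotype (control blue, D/+ yellow, homozygous red). Bmp4, Id2 and Smad6 step down from E11.5 to E16.5, Bmp7 is between 30.6 and 53.6 FPKM in all embryonic libraries and at 0.24 to 1.99 in all 8-week libraries, and single 8-week libraries reach 185 FPKM for Id1 and 33.9 for Bmp10.

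Between the F/+ hearts of E11.5 and the F/+ ventricles of E16.5, 8 of the 9 genes were lower at the later stage and none was higher. Over all genes 31.2% were called lower and 18.3% higher (limma on log2(FPKM + 1), Benjamini-Hochberg adjusted p under 0.05 over 11423 genes), and the median log2 change was -1.29 for the 9 genes and -0.18 for all genes. The groups of the 8 did not overlap, as held for 36.9% of all genes in that direction. The change of tissue, from whole heart to ventricle, goes with the change of stage, and they cannot be told apart.

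Bmp4 was at 28.0, 51.3 and 22.2 FPKM at E11.5 and at 5.8, 5.54 and 4.21 at E16.5, so every E11.5 library lay well above every E16.5 one. The log2 difference was -2.42 (SE 0.30, limma adjusted p = 2.825e-05), 5.33-fold lower. Id2 was at 136, 180 and 136 FPKM and then at 32.9, 35.6 and 28.5, again without overlap. Its log2 difference was -2.18 (SE 0.16, limma adjusted p = 4.035e-07), 4.52-fold lower. Smad6 was at 38.9, 45.6 and 37.2 and then at 16.1, 16.3 and 15.4 FPKM, 2.45-fold lower (log2 -1.29, SE 0.14, limma adjusted p = 7.695e-06). The E16.5 libraries lay within 1 FPKM of each other, and the groups did not overlap. Bmp10 (25.9, 22.9 and 16.4, then 5.98, 7.88 and 7.16 FPKM) and Bmp2 (4.54, 8.5 and 4.98, then 0.96, 2.18 and 1.32) were 2.81-fold and 2.79-fold lower on that scale. Bmp5 fell from 2.54, 1.63 and 2.35 to 1.15, 0.17 and 0.36 FPKM (log2 -1.06, SE 0.32, limma adjusted p = 0.015), with -2.06 at a pseudocount of 0.1; its p was above the threshold without E16.5 F/+ replicate 2 (adjusted p = 0.06952) or replicate 3 (0.05343).

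Of the other targets, Id1 was 1.81-fold lower at E16.5 (67.5, 66.0 and 67.3, then 39.7, 39.4 and 31.0 FPKM; log2 -0.86, SE 0.20, limma adjusted p = 0.003266). Id3 changed least among the genes called, by a log2 difference of -0.39 (SE 0.14, limma adjusted p = 0.03101), from 159, 193 and 160 to 129, 131 and 127 FPKM. The call for Id3 was lost when libraries were rescaled by median ratio (-0.18, adjusted p = 0.2755) or by upper quartile (-0.13, adjusted p = 0.3637), in the fit over all 25 libraries (adjusted p = 0.5327), and without E11.5 F/+ replicate 2 (0.1072) or E16.5 F/+ replicate 1 (0.06957), 2 (0.06877) or 3 (0.08382). The fit over all 25 libraries also lost Bmp10 (adjusted p = 0.1955) and Id1 (0.177). Bmp7 was the exception, at 35.3, 52.8 and 32.6 FPKM and then 36.1, 36.0 and 34.0, with overlapping groups. Its log2 difference was -0.15 (SE 0.21, limma adjusted p = 0.5798), and turned to 0.06 and 0.11 under the 2 rescalings. These shifted the median of all genes by 0.19 and 0.23 and the share of called genes that were higher from 36.9% to 51.4% and 54.3%; the other 7 genes stayed called lower under both.

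Markers of several cell types moved over the same interval. The 8 epicardial markers summed to 248 to 401 FPKM in the E11.5 F/+ hearts and 65.6 to 75.8 in the E16.5 ventricles, the 8 mesenchymal markers to 475 to 583 and 1218 to 1379, and the 11 cardiomyocyte markers to 13230 to 15480 and 20380 to 22820. The 11 endothelial markers summed to 344 to 379 and 330 to 365 FPKM. The 6 atrial and sinus markers summed to 76.5 to 118 and 28.6 to 33.5, and the 4 trabecular markers, of the class that gave most Bmp10 UMIs in the single cells, to 981 to 1359 and 427 to 620. The 6 outflow and second heart field markers overlapped, at 17.94 to 21.48 and 15.53 to 20.04 FPKM. Of these, 2 were at 0 in all E16.5 F/+ libraries. In the single cells 4 of them led the Rspo3 and Sema3c cluster, highest in Bmp4, as did all 11 cardiomyocyte markers. The 9 erythroid markers found summed to 39270 to 136300 and 130.8 to 299.8 FPKM. The 6 megakaryocyte markers summed to 96.79 to 103.4 and 4.33 to 10.84. None of these lists was at 0, and their part in the members' changes was not tested.

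Of the 39 further pathway genes, 26 were tested between these stages, 3 were called higher and 15 lower. By role, 1 of 2 further ligands, 2 of 7 receptors and co-receptors, 3 of 5 Smads, 5 of 7 antagonists and modulators and 4 of 5 other targets were lower. Among the receptors 2 were higher, and among the modulators 1. Above a mean of 5 FPKM the largest changes were those of the target gene Msx2 (log2 -2.38, SE 0.40, limma adjusted p = 3.224e-04), the pseudoreceptor gene Bambi (-1.73), the target gene Msx1 (-1.59) and the signalling Smad gene Smad5 (-1.56).

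From the E16.5 F/+ ventricles to the 8-week +/+ cardiomyocytes, 5 of the 7 members tested were lower and none higher. Over all 10904 genes 44.9% were called lower and 24.9% higher, and the median log2 change was -0.34. Stage, tissue preparation and genotype all differ between these groups and cannot be told apart, and the E16.5 libraries are the same as in the previous comparison. Bmp7, not called between the embryonic stages, had the largest difference here: 36.1, 36.0 and 34.0 FPKM against 1.44, 0.53, 0.96, 1.99 and 0.46, a log2 difference of -4.19 (SE 0.24, limma adjusted p = 4.562e-07), 18.2-fold lower on the scale of FPKM + 1. With a pseudocount of 0.1 the log2 difference of Bmp7 was -5.095. Id2 was 6.76-fold lower, at 5.79, 4.83, 3.64, 1.36 and 5.58 FPKM in the 8-week libraries (log2 -2.76, SE 0.32, limma adjusted p = 4.773e-05). Smad6 was at 5.42, 5.11, 8.7, 4.72 and 9.96 FPKM and 2.25-fold lower (limma adjusted p = 0.001347).

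Bmp10 was listed at 0 in 3 of the 5 +/+ libraries and at 3.27 and 0.45 FPKM in the others, below the 5.98 to 7.88 of the E16.5 F/+ ventricles (log2 -2.47, SE 0.45, limma adjusted p = 8.521e-04). Its size rests on the pseudocount, and was -4.635 with a pseudocount of 0.1. Id3 was 2.16-fold lower (log2 -1.11, SE 0.31, limma adjusted p = 0.009085), a call lost under median-ratio scaling (-0.70, adjusted p = 0.07799). Id1 was at 42.3, 33.3, 42.3, 18.2 and 62.2 FPKM, around its E16.5 values, with a log2 difference of 0.02 (SE 0.32, limma adjusted p = 0.9677). Bmp4 had a log2 difference of -0.81 (SE 0.35, limma adjusted p = 0.06061), and -1.07 with an adjusted p of 8.18e-04 without the library labelled +/+ replicate 5, where it was at 6.37 FPKM against 1.36 to 2.64 in the others. With the replicate number as a block its adjusted p was 0.005733. Without the same library the log2 differences of the others were -4.07 for Bmp7, -2.86 for Id2, -2.34 for Bmp10, -1.35 for Id3 and -1.31 for Smad6, all still called, and -0.17 for Id1 (limma adjusted p = 0.5757). Bmp2 and Bmp5 did not pass the filter on low values. Median-ratio and upper-quartile scaling shifted the median of all genes by 0.36 and 0.26, and the share of called genes that were higher from 35.7% to 51.7% and 46.8%.

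The 8 mesenchymal markers summed to 1218 to 1379 FPKM in the E16.5 ventricles and 26.0 to 51.7 in the 8-week +/+ cardiomyocytes, and the 8 epicardial markers to 65.6 to 75.8 and 3.41 to 14.5. The endothelial sums were 330 to 365 and 120 to 399 FPKM. The part of these in the members' differences was not tested. Of the further pathway genes 19 were tested, 7 were lower and none was higher: 3 of 7 receptors and 4 of 4 modulators. The largest were Fstl1 (log2 -3.54, SE 0.17, limma adjusted p = 1.349e-07), the modulator gene Twsg1 (-1.51), the receptor gene Acvr1 (-1.46) and the procollagen proteinase gene Bmp1 (-1.33).

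**Figure D3:**
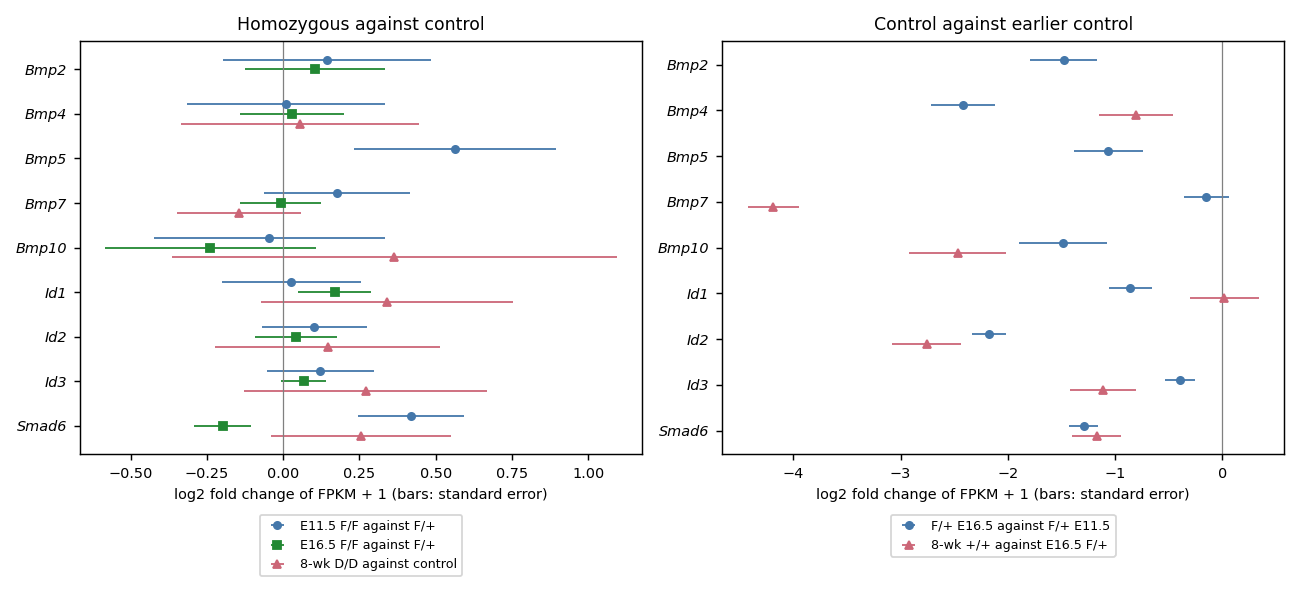
Log2 difference (limma on log2(FPKM + 1); bars, 1 SE) of each member between homozygous and control libraries (left) and between controls of successive stages (right). Differences between stages reach -4.19 (Bmp7) and -2.42 (Bmp4), while no difference between genotypes was called.

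The full-length deletion was compared with its heterozygote at both embryonic stages. No member was called in E11.5 hearts, where 0.0087% of 11491 genes were (1 gene), and the members' adjusted p-values were all 0.9993. At an unadjusted p under 0.05, 1 of the 9 members and 4.37% of all genes passed. That gene was Smad6, at 38.9, 45.6 and 37.2 FPKM in F/+ and 63.2, 53.8 and 47.3 in F/F. All F/F libraries lay above all F/+ ones, a log2 difference of 0.42 (SE 0.17, unadjusted p = 0.03558, limma). Bmp5 also had groups that did not overlap, though barely: 2.54, 1.63 and 2.35 FPKM in F/+ and 5.28, 3.47 and 2.58 in F/F (log2 0.56, SE 0.33). Over all genes, 4.93% were higher in F/F without overlap and 4.31% lower.

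The Id genes overlapped between genotypes: Id1 was at 67.5, 66.0 and 67.3 FPKM in F/+ and 77.9, 88.8 and 45.8 in F/F, a wider spread around a log2 difference of 0.03 (SE 0.23). Id2 had a log2 difference of 0.10 (SE 0.17) and Id3 of 0.12 (SE 0.18). Of the ligands, Bmp7 had 0.18 (SE 0.24), Bmp2 0.14 (SE 0.34), Bmp4 0.01 (SE 0.33) and Bmp10 -0.05 (SE 0.38). Beside Smad6, the endothelial markers summed to 344 to 379 FPKM in F/+ and 407 to 438 in F/F, the cardiomyocyte markers to 13230 to 15480 and 16130 to 18410, and the mesenchymal markers to 475 to 583 and 420 to 481; the part of these in the Smad6 values was not tested.

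In E16.5 ventricles no member was called either, of 8 tested, with adjusted p-values of 0.9999; 0.00935% of 10699 genes were (1 gene). No member passed an unadjusted p of 0.05, as 2.63% of all genes did. Smad6 was again the member whose groups did not overlap, now with F/F below F/+: 16.1, 16.3 and 15.4 FPKM in F/+ and 13.6, 12.9 and 14.8 in F/F (log2 -0.20, SE 0.09, unadjusted p = 0.06723, limma). The haemoglobin share of summed FPKM was 0.651% to 0.835% in these F/+ libraries and 0.998% to 2.42% in F/F, without overlap, and Y-linked genes reached 1 FPKM in 1 of 3 F/+ and 3 of 3 F/F libraries; the part of these in the Smad6 values was not tested. Without overlap, 2.88% of all genes were lower in F/F and 3.9% higher. Id1 had a log2 difference of 0.17 (SE 0.12), Id3 of 0.07 (SE 0.07) and Id2 of 0.04 (SE 0.13). Bmp10 was at 5.98, 7.88 and 7.16 FPKM in F/+ and spread from 3.59 to 11.4 in F/F (log2 -0.24, SE 0.34). Bmp5 did not pass the filter on low values.

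The difference of the 2 effects was tested as an interaction. For Smad6 it was -0.62 (SE 0.19, unadjusted p = 0.006829, limma) with an adjusted p of 0.9991, so it did not pass. Over the alternatives that kept all libraries it lay between -0.64 and -0.57, with limma adjusted p-values of 0.7165 or more. With single libraries left out it lay between -0.71 and -0.51, with limma adjusted p-values of 0.5086 or more. Over all genes 4.32% passed the unadjusted threshold and 0.00875% the adjusted one. The interaction of the other members ranged from -0.44 (Bmp5, SE 0.45) to 0.14 (Id1, SE 0.28). Of the further pathway genes, 26 were tested at E11.5 and 21 at E16.5, and none was called at either stage. By limma on simulated data of the same layout, a log2 change of 1 was recovered for 33% of changed genes at E11.5 and 78% at E16.5. Changes of the members of that size, and smaller ones, could therefore have gone uncalled, above all at E11.5.

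The single-cell libraries compare F/F with +/+ rather than with F/+, in 1 library each, so they allow no test. There Smad6 was lower in F/F: over all cells 2027 UMIs in +/+ and 2102 in F/F, a log2 ratio of CPM of -0.36 (interval -0.45 to -0.27). By class it was -0.44 (-0.57 to -0.31) in the mesenchymal, -0.42 (-0.64 to -0.19) in the endothelial and -0.42 (-0.79 to -0.05) in the ventricular cells. Both clusters of the mesenchymal and both of the endothelial class had the lower value in F/F. The log2 ratio was -0.07 (-0.59 to 0.46) in the trabecular cells. The bulk E11.5 hearts had Smad6 at a log2 difference of 0.42 in the other direction, against a heterozygous control and in hearts not sorted for live cells.

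The Id genes were slightly higher in the F/F library: over all cells the log2 ratios were 0.16 (0.11 to 0.21) for Id1, 0.20 (0.17 to 0.24) for Id2 and 0.14 (0.12 to 0.17) for Id3. Not every class followed: Id2 was lower in the F/F atrial and sinus cells (-0.28, -0.46 to -0.10, from 399 and 740 UMIs), and Id3 was level in the Rgs5 and Isl1 cluster (-0.00, -0.13 to 0.12). Over all cells Bmp4 was lower, at -0.20 (-0.29 to -0.12), and in the atrial and sinus cells at -0.77 (-1.16 to -0.37), from 96 and 127 UMIs. In the Rgs5 and Isl1 cluster Bmp4 was level (0.03, -0.18 to 0.24), while Id1 there stood at 301 CPM in +/+ and 473 in F/F (log2 ratio 0.65, 0.43 to 0.88). Bmp7 had a log2 ratio of -0.51 (-0.81 to -0.21) in the Rspo3 and Sema3c cluster, -0.26 (-0.46 to -0.05) in the ventricular and -0.22 (-0.40 to -0.04) in the trabecular cells. No member was past 1.5-fold over all cells, where 0.183% of 10384 genes were higher and 1.41% lower by that much. Bmp10 over all cells had a log2 ratio of -0.34 (-0.63 to -0.05), and Bmp2 and Bmp7 had intervals that included 0.

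Among members and classes with at least 100 UMIs in each library, 3 pairs were past 1.5-fold, all higher in F/F. They were Id1 in the Rgs5 and Isl1 cluster, where 1.14% of 1225 genes were higher by that much, and Id2 and Id3 in the erythroid cells, where 1.51% of 3766 genes were. Over the 11 classes that share ranged from 0.0995% to 4.25%. Id3 in erythroid cells was at 13.0 and 26.9 CPM, and Id2 at 7.89 and 14.9, far below their levels in the mesenchyme. Erythroid cells served above as the background for free RNA, and whether these values come from the cells or from free RNA was not tested. In the trabecular cells Id3 had a log2 ratio of 0.85 (0.47 to 1.24) from 86 and 181 UMIs, beside this difference in the background. Bmp10 in the ventricular cells had a log2 ratio of -1.98 (-3.07 to -0.96) from 25 and 13 UMIs. The ventricular class held 172 +/+ and 362 F/F cells, and thinned shares of its cells with a Bmp10 UMI were 4.71% (2.05 to 9.06) and 0.875% (0.181 to 2.54).

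The distal deletion was compared in 8-week cardiomyocytes. No member was called between D/D and the joined +/+ and D/+ controls, of 7 tested, with adjusted p-values of 0.9999, and 0% of 10249 genes were called; at an unadjusted p under 0.05, 0 members and 1.71% of all genes passed. The largest differences were those of Bmp10 (log2 0.36, SE 0.73), Id1 (0.34, SE 0.41), Id3 (0.27, SE 0.40) and Smad6 (0.26, SE 0.30), each within 1 SE of 0. Against the +/+ libraries alone, which are part of the joined controls, the values were 0.37, 0.40, 0.29 and 0.24 (0.24, 0.59, 0.52 and 0.37 without the library labelled +/+ replicate 5), and 0 genes were called, with 1.01% at the unadjusted threshold. Of the further pathway genes 18 were tested and none was called in either comparison.

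Single libraries set these values. Id1 was at 29.2, 54.6, 18.8, 39.5, 185 and 62.2 FPKM in D/D replicates 1 to 6, so replicate 5 stood apart from the other 5. Id3 was at 254 FPKM in the same library and 29.7 to 108 in the other D/D libraries. Without D/D replicate 5 the log2 differences against the joined controls were -0.04 for Id1, -0.09 for Id3 and 0.06 for Smad6. Without the library labelled +/+ replicate 5 they were 0.45, 0.42 and 0.35, and 0.28 for Bmp10. D/D replicate 5 also had the highest sum of endothelial markers, 560 FPKM, and the library labelled +/+ replicate 5 the next, 399, with Id3 at 114, the highest of the controls. The lowest endothelial sum, 120 in +/+ replicate 4, went with the lowest Id1 (18.2) and Id3 (35.7) of the controls. Other lists set D/D replicate 5 apart too. It had the highest epicardial (17.7 FPKM), mesenchymal (55.5), immune (48.1) and outflow (73.6) sums of the 8-week libraries. Its cardiomyocyte sum, 32020, was the lowest. The lowest epicardial sum, 3.41, was again in +/+ replicate 4. In the single cells of E11.5 hearts Id1 and Id3 were higher in the endothelial, epicardial and mesenchymal than in the ventricular cells. The part of RNA of any of these cells in the 8-week values was not tested.

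Bmp10 was listed at 0 in 4 of the 6 D/D libraries, at 0.19 in another and at 33.9 FPKM in D/D replicate 2, without which it did not pass the filter on low values. Among the controls it was highest in +/+ replicate 1, at 3.27 FPKM. These were also the 2 libraries with the highest Sln, an atrial calcium pump regulator, at 205 and 210 FPKM against at most 44.5 in the other 11. Myl7 and Myl4, the atrial myosin light chains of the adult heart, were highest there too, at 398 and 323 and at 252 and 229 FPKM, against at most 112 and 74.1. Sln, Myl7 and Myl4 were picked after their values were seen, and the rest of the atrial and sinus list did not move with them: Kcna5 was at 7.8 and 5.3 FPKM, within the 6.58 to 17.9 of the others or below it, Nr2f1 at 0.48 and 0.61, Hcn4 at 6.17 and 6.72, Shox2 at 0 and 0.46 and Stard10 at 35.1 and 46.1, of which only the last was the highest of the 13 libraries. The 4 trabecular markers also had their highest sums there, 1591 and 1350 FPKM against at most 896. The part of other cardiomyocytes in the Bmp10 values was not tested.

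**Figure D4:**
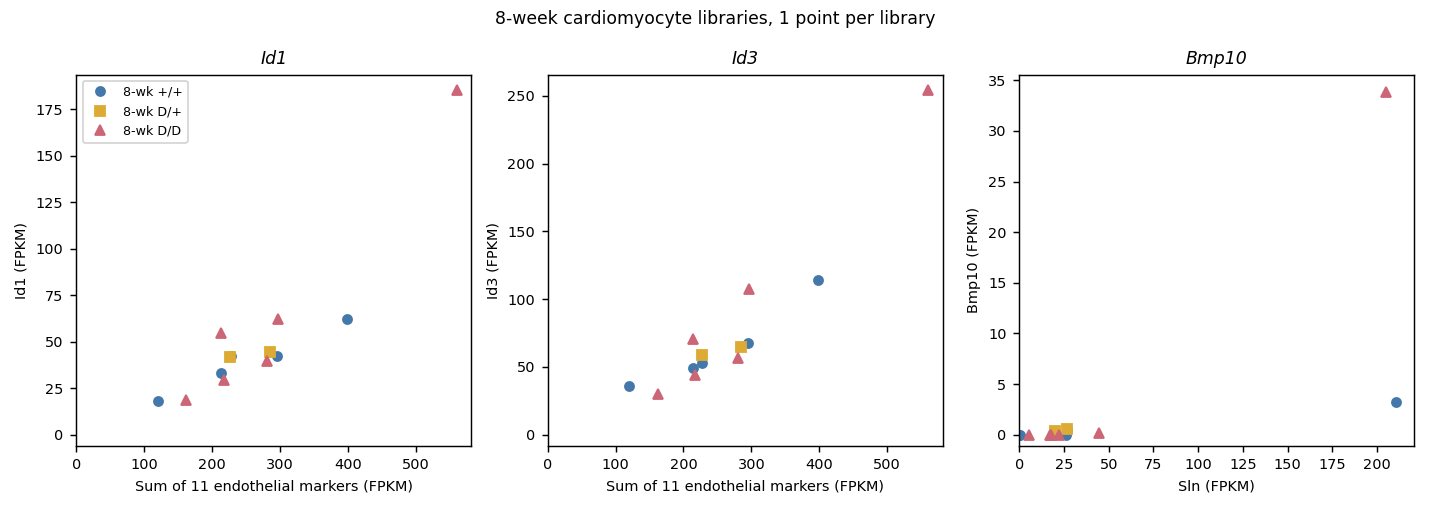
FPKM of Id1 and Id3 against the summed FPKM of 11 endothelial markers, and of Bmp10 against the FPKM of Sln, in the 13 8-week libraries, 1 point per library, by genotype. D/D replicate 5 (Id1 at 185 FPKM) has the highest endothelial sum (560 FPKM). It also has the highest epicardial, mesenchymal and immune sums and the lowest cardiomyocyte sum. The 2 libraries with the highest Bmp10 (33.9 and 3.27 FPKM) have the highest Sln (205 and 210 FPKM), a gene picked after its values were seen. Kcna5 and Nr2f1, from the same marker list, are not high there.

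The 13 libraries could be divided in 2 ways that the labels do not name. Hierarchical clustering set the library labelled +/+ replicate 5 and D/D replicate 6 apart from the other 11. Within the 11, Id1 averaged 65.5 FPKM in D/D and 37.0 in controls, Id3 91.0 and 54.95 and Smad6 7.99 and 6.32; the other set holds 1 library per genotype, with Id1 at 62.2 in both, Id3 at 108 and 114 and Smad6 at 12.3 and 9.96. A division chosen after seeing the data took the first 2 D/D and +/+ replicates with D/+ replicate 1 against the other 8. The next best division separated 503 of 10224 genes. The chosen one separated most, 861, a count that follows from the choice. In its smaller set Smad6 was at 4.68 FPKM on average in D/D and 4.69 in controls, Id1 at 41.9 and 39.1 and Id3 at 57.1 and 53.8. In the larger set Smad6 was at 10.7 and 8.45, Id1 at 76.4 and 41.7 and Id3 at 112 and 70.6, with D/D replicate 5 included. Both divisions were found in the data, so they describe the libraries rather than a known batch.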

How the data were processed

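Messenger RNA was measured in 25 bulk and 2 single-cell libraries. Bulk values are FPKM, as the authors deposited them; no header names the unit, which was inferred from the values. Single-cell values are UMI counts, deposited as whole numbers for each gene and barcode, and the columns were assigned to libraries by their barcode endings. The submitters' processing notes name CASAVA, TopHat, TopHat2 2.0.11 and mm9 for the bulk and Cell Ranger and mm10 for the single-cell samples, without role or order; counting software and annotation are not given in the sources used here. The bulk kit keeps strand, per the labels' protocols, but whether counting used it is not given.

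In the bulk values 270 symbols were repeated, on 769 lines, and were merged; a blank cell removed 1 gene. Values were transformed to log2(FPKM + 1), which understates the change of low genes. A gene entered a fit where its mean was at least 1 FPKM. The fits used limma 3.58.1 (R 4.3.3, trend option), with Benjamini-Hochberg adjustment over all genes tested and a threshold of 0.05. The test was tested on simulated data with known changes. Each genotype comparison of an embryonic stage had its own fit; the interaction and the comparison of stages used the 12 embryonic libraries.

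Barcodes needed at least 500 genes. Scrublet's own threshold marked 2 and 4 barcodes, too few, so the highest scores were removed at 0.8% per 1000 barcodes (52 and 96). Scanpy 1.11.5 clustered both libraries with 2000 variable genes, without the 9 members and the pathway list, 30 principal components, 15 neighbours and a Leiden resolution of 1.0. Classes are named from marker lists and may differ from the study's own. Ratios have exact conditional intervals at 95%, shares exact Clopper-Pearson intervals, and a count of 0 is drawn at 3 counts; all cover counting error only. Shares of cells were compared after thinning to 5000 UMIs.

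Named genes followed a rule: the 9 members everywhere; of 39 further pathway genes at most 4 called genes per bulk comparison with the largest change and a mean of 5 FPKM or more, and in single cells those with at least 100 UMIs in each library; and the genes with the highest correlation with each member. Sln was named after its values were seen. The members, the lists and the tests were chosen with earlier results of these data known. The alternatives were no filter on low values, a pseudocount of 0.1, 2 rescalings, all 25 libraries in 1 fit, the replicate number as a block, a Y-linked covariate, terms for sets of 8-week libraries, leaving out each library, and for single cells 1000 genes per barcode, doublets kept, resolution 0.5 and members kept in the clustering. The division of the 8-week libraries into 5 and 8 was added after seeing the data.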

Additional observations from a re-analysis of the deposited data

Results flagged for a closer look

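In 18 sets of values (a member in a group of 4 to 10 libraries), 5 single values stood apart from the rest of their group by a test of the gap to the nearest value. The flagged values were Bmp4 in the library labelled +/+ replicate 5 (6.37 FPKM), Bmp10 in +/+ replicate 1 (3.27 FPKM) and in D/D replicate 2 (33.88 FPKM), and Id1 (185.32 FPKM) and Id3 (254.39 FPKM) in D/D replicate 5. The sets share libraries, and the flags of Id1 and Id3 come from the same library. Bmp10 had a median of 0 FPKM in both +/+ and D/D. The number of flags therefore cannot be set against the test's rate of about 1 in 20. The +/+ libraries other than replicate 5 had Bmp4 between 1.36 and 2.64 FPKM, and the D/D libraries reached 8.39.

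The difference of Smad6 between F/F and F/+ had opposite signs at E11.5 and E16.5, with groups that did not overlap at either stage. It was called at neither stage (limma adjusted p = 0.9993 and 0.9999). Without overlap, 4.93% of all genes were higher in F/F at E11.5 and 2.88% lower at E16.5. The share of all genes with both features is not given here. The change of the Smad6 difference between the stages was -0.6168 on the log2 scale, and its limma adjusted p was 0.9991.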

How the results depend on the processing

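No genotype comparison called a member under any alternative run. Counts of genes called moved as follows: from 1 to 24 (all 25 libraries in 1 fit) and 2 (replicate block) at E11.5, with 1 to 2 when single libraries were left out; from 1 to 2 (pseudocount 0.1) and 3 (Y-linked covariate) at E16.5, with 0 to 2; and for the interaction from 1 to 2 (pseudocount 0.1), 3 (no filter on low values) and 6 (all 25 libraries), with 1 to 9, the 9 without E11.5 F/+ replicate 3. Pairs of member and class past 1.5-fold rose from 3 to 7 at Leiden resolution 0.5. That resolution gave no ventricular class and no Rgs5 and Isl1 cluster, so Id1 in that cluster has no counterpart there. The causes were not tested. Same-numbered embryonic libraries did not deviate together (correlations -0.036, -0.017 and 0.082 at E11.5, and -0.081, 0.042 and -0.435 at E16.5). At 8 weeks the correlations of +/+ with D/D were 0.527, 0.418, -0.039, -0.107 and 0.213 for replicates 1 to 5. Some same-numbered 8-week libraries thus deviated together, and whether the numbers pair them is not known. With the replicate block the D/D difference of Bmp4 turned to -0.2983 against joined controls. Against +/+, Bmp4 turned to -0.1835 and Bmp7 to 0.02832. The block also called Bmp4 between 8-week and E16.5 controls (-0.98).

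Signs of uncalled differences turned under other settings: by median-ratio scaling Bmp4 at E11.5 (-0.004251) and Bmp7 between the F/+ stages (0.05876); by upper-quartile scaling Bmp4 (-0.06236) and Id1 (-0.04659) at E11.5, Bmp7 between stages (0.107) and the interaction of Bmp2 (0.0109); by a pseudocount of 0.1 the interaction of Bmp2 (0.0169) and, at 8 weeks, Bmp4 (-0.02465) and Bmp10 (-0.1186); by the Y-linked covariate at E16.5 Bmp2 (-0.2808), Bmp4 (-0.06121) and Id2 (-0.09636); and by the term for the 5 and 8 libraries Bmp4 (-0.01429). With single libraries left out, signs turned within these ranges. At E11.5 they were Bmp2 -0.1519 to 0.414, Bmp4 -0.2402 to 0.3472, Bmp10 -0.5418 to 0.3013 and Id1 -0.1609 to 0.3096. At E16.5 they were Bmp2 -0.05334 to 0.2958, Bmp4 -0.08934 to 0.1697, Bmp7 -0.1596 to 0.08923, Bmp10 -0.6784 to 0.04082 and Id2 -0.0795 to 0.1389. For the interaction they were Bmp2 -0.3105 to 0.2555, Bmp4 -0.3179 to 0.2696, Bmp10 -0.6327 to 0.3038, Id1 -0.1408 to 0.3297, Id2 -0.1919 to 0.03692 and Id3 -0.2216 to 0.03454. For D/D against joined controls they were Bmp4 -0.2114 to 0.2733, Id1 -0.03746 to 0.6095, Id2 -0.0603 to 0.4197 and Id3 -0.08893 to 0.5222. Against +/+ they were Bmp4 -0.1835 to 0.3509, Bmp7 -0.2046 to 0.02832, Id2 -0.135 to 0.4028 and Id3 -0.07015 to 0.5409. Between stages they were Bmp7 -0.2814 to 0.05764 (E16.5 against E11.5) and Id1 -0.1685 to 0.2607 (8 weeks against E16.5). Smad6 turned in none of these. The unknown depth of the bulk values and 3 libraries per embryonic group limit what could be called.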
